A study of Fukomys damarensis and Heterocephalus glaber and Cavia porcellus with 28 samples.

Results

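The messenger RNA of iron uptake, storage and hepcidin control was followed in heart and liver of 4 rodent species through 10 genes: Tfrc, Tfr2, Trf, Slc11a2, Slc40a1, Fth1, Ftl1, Bmp6, Tmprss6 and Hamp. They were taken by symbol from tables of 13928 genes that are listed under mouse Ensembl identifiers, and 8 of the 10 had a row in both tables. Trf, the gene of the plasma iron carrier transferrin, and Hamp, the gene of hepcidin, had none and were not analysed here. The species were the naked mole-rat (Heterocephalus glaber), the Damaraland mole-rat (Fukomys damarensis), the guinea pig (Cavia porcellus) and the mouse (Mus musculus), and the series sets the mole-rats against the guinea pig and the mouse as outgroups. Total RNA depleted of ribosomal RNA was sequenced from flash-frozen tissue. No treatment or allele is named in the labels, and no strain is given for the mice.

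Heart came from 3 naked mole-rats aged 13 to 17 months, 5 Damaraland mole-rats aged 36 to 48 months, 3 guinea pigs aged 2.3 months and 3 mice aged 2 months. Liver came from 4, 5, 3 and 2 animals of the same species and the same age ranges. Each library of a tissue came from a different animal, and 10 of the 18 animals gave both tissues. All were male except 1 Damaraland mole-rat in the liver set, and 1 Damaraland animal is labelled 48 months in heart and 36 months in liver. Age ran with species, so an effect of age and an effect of species cannot be told apart, and no sequencing batch is given in the labels.

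Iron enters most cells as transferrin-bound iron through transferrin receptor 1 (Tfrc), leaves the endosome through the ferrous iron transporter DMT1 (Slc11a2) and is stored in ferritin, a shell of heavy (Fth1) and light (Ftl1) chains. Ferroportin (Slc40a1) is the known cellular iron exporter of mammals, and the liver hormone hepcidin blocks it and marks it for degradation. Hepcidin transcription in hepatocytes responds to BMP6 made largely by liver endothelial cells and to transferrin receptor 2 (Tfr2), while the protease matriptase-2 (Tmprss6) damps the response by cutting the BMP co-receptor hemojuvelin. Ferritin and ferroportin are also controlled at translation and Tfrc at the stability of its mRNA, so an mRNA level is not a protein level.

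The deposited values are on a log2-like, variance-stabilised scale. They could be turned back into whole reads, and a scaled read below is a read divided by the size factor of its library. No correction for gene length is contained in either quantity, so levels are compared between species for 1 gene at a time and not between genes. The log2-like scale is compressed for rare genes: a doubling from 10 scaled reads moved the heart value by 0.282, and a doubling from 1000 moved it by 0.946. Differences between species means were tested with limma within each tissue over all genes with a mean at least 1 above the value of 0 reads, and a gene was called at a Benjamini-Hochberg adjusted p under 0.05 and a difference of at least 1 on the log2-like scale.

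Libraries held 4089633 to 26985779 reads in heart and 11220505 to 21467939 in liver, and naked mole-rat heart replicate 3 was the shallowest. Reads of mitochondrially encoded genes were at most 0.0279% of every Damaraland library and at least 2.88% of every other library. The reason, and its bearing on other Damaraland differences such as Slc11a2, was not tested. The tissue labels were checked with 8 cardiomyocyte and 8 hepatocyte markers, all with a row. Summed cardiomyocyte markers were 760849 scaled reads or more in every heart library and at most 3783 in every liver library. Hepatocyte markers summed to 973491 scaled reads or more in every liver library. In heart they summed to 12484 to 34028 in the naked mole-rat, 3697 to 7096 in the Damaraland mole-rat, 3909 to 5881 in the guinea pig and 373 to 1346 in the mouse. The naked mole-rat hearts had the highest sums, most of it Alb, and 6 of the 8 markers lay above every other heart there. Apoa1 did not, at 248 to 455 scaled reads against 1567 to 1947 in Damaraland and 3081 to 3567 in guinea pig heart, where it made up most of the sum. Tdo2 did not either, at 10.4 to 18.5 against 10.4 to 30.9 in Damaraland heart. In bulk tissue, fewer cells of a type and less RNA per cell cannot be told apart.

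Species differences were spread over all 8 genes, and no member was called, with 1 sign, for each mole-rat against each outgroup in either tissue. In heart, ferroportin was higher and Slc11a2 lower in the Damaraland mole-rat than in each other species, while Tfr2 was higher and Fth1 lower in the naked mole-rat than in each other species. In liver, ferroportin was higher in the naked mole-rat, Slc11a2 lower in the Damaraland mole-rat and Bmp6 higher in the mouse than in each other species. Of the 90 member differences tested, 37 were called, 19 in heart and 18 in liver.

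These counts lay on a background of frequent species differences. In heart, 5 of the 7 members tested were called between the naked and Damaraland mole-rats, beside 29.4% of all genes tested. Against the guinea pig, 4 were called for the naked mole-rat (background 33%) and 2 for the Damaraland mole-rat (29.7%). Against the mouse, 4 were called for the naked mole-rat (38.2%), 3 for the Damaraland mole-rat (34.9%) and 1 for the guinea pig (32.1%). In liver, with 8 members tested, each of the 6 species pairs gave 3 calls. The liver backgrounds were 34.2% between the mole-rats, 37.8% and 41.2% for the naked mole-rat against guinea pig and mouse, 36.2% and 39.2% for the Damaraland mole-rat against the same species, and 37.2% between guinea pig and mouse. The count of 0 members shifted in both mole-rats stands beside 4.68% of all genes in heart and 6.29% in liver. The pairs share libraries, so their counts are not independent.

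**Figure D1:**
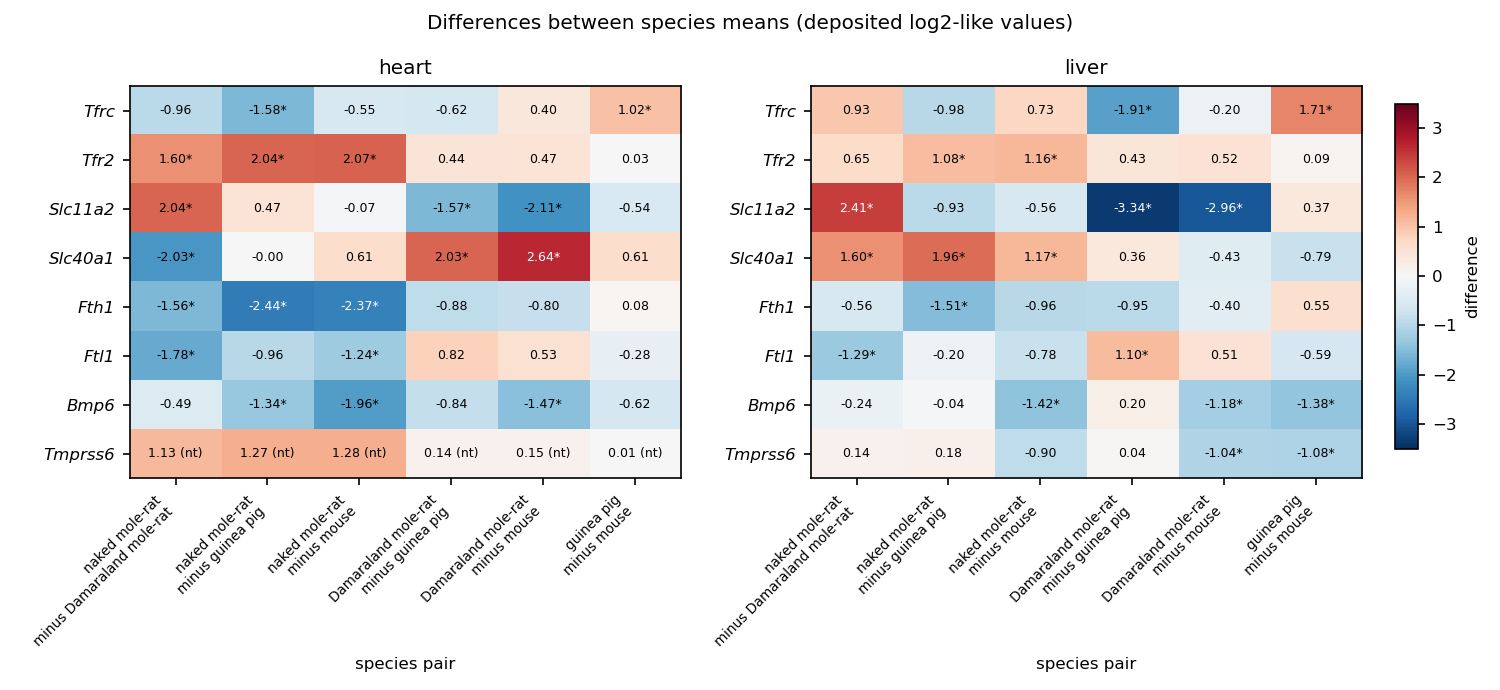
Difference between species means of each member (rows) for the 6 species pairs (columns) in heart and liver, on the log2-like scale; an asterisk marks a difference called by limma and nt a gene not tested because its mean lay under the filter. Slc40a1 between the mole-rats is negative in heart (-2.03) and positive in liver (1.60), and Slc11a2 is positive there in both tissues (2.04 and 2.41).

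The uptake receptor Tfrc (ENSMUSG00000022797) was lower in naked mole-rat heart than in guinea pig heart. Its heart levels were 1545, 1249 and 1897 scaled reads in the naked mole-rat and 6151, 5498 and 3198 in the guinea pig, which did not overlap. Damaraland hearts spread widely, with 2212, 6084, 2304, 1788 and 4820, and mouse hearts had 2713, 2147 and 2093. The Damaraland range therefore overlapped those of all 3 other species. The naked mole-rat minus guinea pig difference was -1.58 (SE 0.37, limma adjusted p = 0.00159). Guinea pig minus mouse was 1.02 (SE 0.37, limma adjusted p = 0.026), a call that fell under the size threshold without guinea pig heart replicate 1 (0.84) or 2 (0.92) or mouse heart replicate 2 (0.98) or 3 (0.96). In the order of heart means, guinea pig, Damaraland mole-rat, mouse, naked mole-rat, no pair of neighbours was called.

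In liver all 3 guinea pigs lay above every other animal for Tfrc, with 2204, 1481 and 1847 scaled reads. The naked mole-rat had 1118, 649, 1010 and 904, the Damaraland mole-rat 719.5, 471, 340.5, 304.1 and 552, and the mouse 447 and 626. The Damaraland minus guinea pig difference was -1.91 (SE 0.24, limma adjusted p = 2.42e-06) and guinea pig minus mouse was 1.71 (SE 0.30, limma adjusted p = 0.000121). Naked mole-rat minus guinea pig was -0.98 and naked minus Damaraland 0.93, both just under the size threshold. The Damaraland and mouse livers overlapped.

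Tfr2 (ENSMUSG00000029716), the iron-sensing receptor of hepatocytes and erythroid precursors, was higher in naked mole-rat heart than in the heart of each other species. The naked mole-rat hearts had 273, 146 and 178 scaled reads, the Damaraland hearts 22.7, 45.9, 20.6, 26.6 and 17.2, the guinea pig hearts 9.10, 19.9 and 2.37, and the mouse hearts 2.65, 11.7 and 12.8. All 3 naked mole-rat libraries lay above every other library. The naked mole-rat exceeded the Damaraland mole-rat by 1.60 (SE 0.19, limma adjusted p = 1.87e-06), the guinea pig by 2.04 (SE 0.21, adjusted p = 4.31e-07) and the mouse by 2.07 (SE 0.21, adjusted p = 2.87e-07). Being higher than in each of the 3 other species was true of 4.87% of all genes for naked mole-rat heart. At these low counts the log2-like scale understates the differences, and voom on the recovered reads gave 2.90, 4.57 and 4.68 on the log2 scale. Under voom the Damaraland mole-rat was also called higher than the guinea pig (1.66, adjusted p = 0.041) and the mouse (1.78, adjusted p = 0.0298), against 0.44 and 0.47 without a call in the limma fit of the deposited values.

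Most hepatocyte markers, like Tfr2, were higher in naked mole-rat hearts than in every other heart. Between guinea pig and mouse hearts the ranges of the marker sum were separate and those of Tfr2 overlapped. Median marker sums were 4285 and 436 scaled reads there. Tfr2 had medians of 9.10 and 11.7 and means of 10.5 and 9.05. Its guinea pig minus mouse difference was 0.027 (limma adjusted p = 0.922). In the median naked mole-rat heart, the 8 hepatocyte markers together stood at 1.36% of the median naked mole-rat liver, Alb at 1.36%, Tfr2 at 1.04% and Tmprss6 at 1.45%. In the Damaraland mole-rat the same shares were 0.254%, 0.152%, 0.191% and 0.177%. In the guinea pig they were 0.253%, 0.0808%, 0.102% and 0.0666%. In the mouse they were 0.0326%, 0.0308%, 0.151% and 0.0516%. The tables of the tissues were normalised separately, so these shares carry the difference in scaling. No hepatocyte marker was at 0 in all hearts of any species. Erythroid markers, 6 of them with a row, summed to 14084 to 15428 scaled reads in naked mole-rat heart and 6899 to 13096 in Damaraland heart. The sums were 4222 to 5449 in guinea pig and 6483 to 7710 in mouse heart. The erythroid gene Alas2, 1 of the 6, went the other way against the mouse, at 60.9 to 111 and 298 to 1342. Nearly all of the naked mole-rat heart sum thus came from the other markers, and whether only erythroid cells made them was not tested. The parts of hepatocyte and erythroid RNA in the heart Tfr2 result were not tested.

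**Figure D2:**
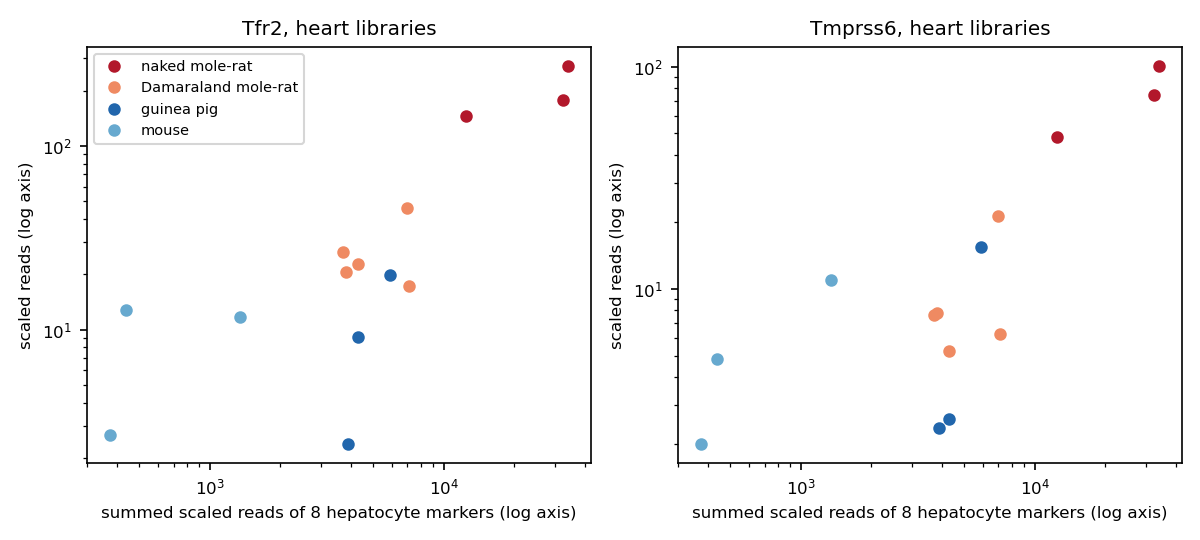
Scaled reads of Tfr2 (left) and Tmprss6 (right) in each of the 14 heart libraries against the summed scaled reads of 8 hepatocyte markers in the same library, on log axes; each point is 1 animal. The 3 naked mole-rat hearts are at the upper right in both panels, with hepatocyte sums of 12484 to 34028 and Tfr2 at 146 to 273 scaled reads.

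In liver, Tfr2 was 12815, 18320, 15726 and 24346 scaled reads in the naked mole-rat. The Damaraland livers had 7953, 13556, 8976, 14327 and 11880, the guinea pig livers 6888, 8886 and 8986, and the mouse livers 7925 and 7514. All naked mole-rat livers lay above all guinea pig and mouse livers and overlapped the Damaraland range. The difference was 1.08 against the guinea pig (SE 0.24, limma adjusted p = 0.000812) and 1.16 against the mouse (SE 0.27, limma adjusted p = 0.00126). Both calls were close to the size threshold: under quantile normalisation the differences were 0.74 and 0.97, and without naked mole-rat liver replicate 4 they were 0.91 and 0.998. Against the guinea pig the call was also lost without guinea pig liver replicate 1, at 0.95, and with array weights, at 0.93.

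Slc11a2 (ENSMUSG00000023030), which encodes the ferrous iron importer DMT1, was lower in the Damaraland mole-rat than in every other species in both tissues. Heart levels were 86.4, 60.1, 79.9, 103 and 68.7 scaled reads in the Damaraland mole-rat. They were 549, 605 and 463 in the naked mole-rat, 372, 358 and 365 in the guinea pig, and 563, 622 and 519 in the mouse. No Damaraland heart reached the lowest library of another species. The naked mole-rat exceeded the Damaraland mole-rat by 2.04 (SE 0.14, limma adjusted p = 2.22e-09), and the Damaraland mole-rat differed by -1.57 from the guinea pig (SE 0.14, limma adjusted p = 5e-08) and by -2.11 from the mouse (SE 0.14, limma adjusted p = 1.11e-09).

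In liver the Damaraland mole-rat was again the low species. Its livers had 33.4, 35.9, 48.6, 41.0 and 36.1 scaled reads of Slc11a2. Naked mole-rat livers had 387, 265, 446 and 316, guinea pig livers 600, 767 and 731, and mouse livers 527 and 529. The ranges of all 4 species were separate. The naked minus Damaraland difference was 2.41 (SE 0.15, limma adjusted p = 2.53e-10), Damaraland minus guinea pig was -3.34 (SE 0.16, limma adjusted p = 1.32e-11) and Damaraland minus mouse was -2.96 (SE 0.18, limma adjusted p = 4.45e-10). Lower in the Damaraland mole-rat than in each other species was true of 2.9% of all genes in heart and 3.3% in liver. Whether the reads of each species cover the same length of this gene is not given in the sources used here, and the part of gene length in the Slc11a2 result was not tested.

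Ferroportin, Slc40a1 (ENSMUSG00000025993), separated the 2 mole-rats in opposite directions in the 2 tissues. In heart the Damaraland mole-rat had 3283, 3952, 4119, 3580 and 5279 scaled reads. The naked mole-rat had 1054, 982 and 733, the guinea pig 630, 899 and 1343, and the mouse 605, 542 and 573. Every Damaraland heart lay above every heart of the other species, and the naked mole-rat and guinea pig ranges overlapped. The naked minus Damaraland difference was -2.03 (SE 0.21, limma adjusted p = 2.87e-07), Damaraland minus guinea pig was 2.03 (SE 0.21, limma adjusted p = 2.68e-07) and Damaraland minus mouse was 2.64 (SE 0.21, limma adjusted p = 9.83e-09). Higher in the Damaraland heart than in each other species was true of 3.86% of all genes.

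In liver the naked mole-rat was the high species for Slc40a1, with 8931, 10409, 5563 and 7218 scaled reads. The Damaraland mole-rat had 2406, 2774, 2286, 2688 and 2610, the guinea pig 1920, 1576 and 2547, and the mouse 3589 and 3302. The naked mole-rat range was separate from all others. Its difference was 1.60 from the Damaraland mole-rat (SE 0.18, limma adjusted p = 4.61e-07), 1.96 from the guinea pig (SE 0.20, limma adjusted p = 2.07e-07) and 1.17 from the mouse (SE 0.23, limma adjusted p = 0.000267). Higher in naked mole-rat liver than in each other species was true of 5.83% of all genes. The Damaraland and guinea pig livers overlapped and differed by 0.36 without a call. Whether the species differences differ between the tissues was not tested, because the tables were normalised separately.

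Ferroportin is known for its high level in the macrophages that recycle red cell iron, so macrophage markers are given beside it. Of 12 such markers, 6 had a row (Cd68, Csf1r, Cd5l, C1qb, C1qc and Cd163). Their sum in heart was 1523 to 3548 scaled reads in the Damaraland mole-rat, 502 to 963 in the naked mole-rat, 1766 to 2159 in the guinea pig and 1694 to 2319 in the mouse. The Damaraland range overlapped those of the outgroups and lay above that of the naked mole-rat. In liver the sum was 3076 to 6605 in the naked mole-rat, 1790 to 3752 in the Damaraland mole-rat, 3971 to 7092 in the guinea pig and 3025 to 3558 in the mouse. The naked mole-rat range overlapped those of all 3 other species, with a median of 5192 against 2317 in the Damaraland mole-rat. Cd163 had 0 reads in all 4 naked mole-rat livers, and an expected count of up to about 3 reads in a library can still give 0. Between the mole-rats the median sum was higher in the species with higher Slc40a1 in both tissues, although the liver ranges overlapped. Cd163 went the other way in liver, with 2.86 to 12.9 scaled reads in the Damaraland mole-rat. Over all 4 species the orders of the sum and of Slc40a1 differed. Guinea pig liver had the highest median sum, 5767, and the lowest mean Slc40a1, 2014 scaled reads. Guinea pig and mouse hearts had median sums of 1976 and 2088 against 1737 in Damaraland heart, with mean Slc40a1 of 957 and 573 against 4043. The part of macrophage RNA in the Slc40a1 results was not tested.

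**Figure D3:**
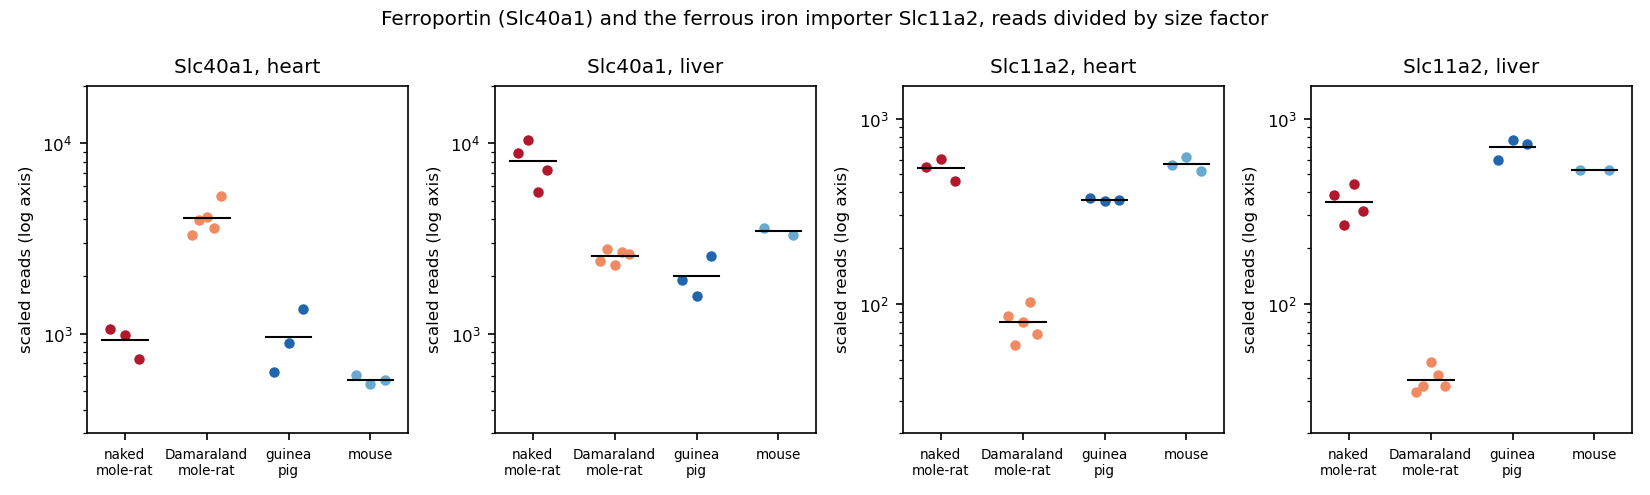
Scaled reads of the exporter Slc40a1 and the importer Slc11a2 in every heart and liver library, on log axes; points are animals and bars are species means. Damaraland hearts lie at 3283 to 5279 for Slc40a1, above all others, whereas in liver the naked mole-rat is above all others at 5563 to 10409; Slc11a2 is lowest in the Damaraland mole-rat in both tissues.

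The ferritin heavy chain, Fth1 (ENSMUSG00000024661), carries the ferroxidase site that oxidises iron for storage. It was lower in naked mole-rat heart than in the heart of each other species. Naked mole-rat hearts had 2656, 2138 and 4938 scaled reads, Damaraland hearts 12007, 9328, 9342, 6942 and 8844, guinea pig hearts 19778, 17640 and 13810, and mouse hearts 16545, 14937 and 16648. The naked mole-rat range was separate from the others, and its highest library was replicate 3, the shallowest. The naked mole-rat differed by -1.56 from the Damaraland mole-rat (SE 0.24, limma adjusted p = 2.39e-05), by -2.44 from the guinea pig (SE 0.26, limma adjusted p = 6.33e-07) and by -2.37 from the mouse (SE 0.26, limma adjusted p = 7.2e-07). Lower in naked mole-rat heart than in each other species was true of 4.14% of all genes. Damaraland minus guinea pig and Damaraland minus mouse were -0.88 and -0.80, with limma adjusted p of 0.00396 and 0.00652 and a size under the threshold. The 6 macrophage markers given above were lowest in naked mole-rat heart, at 502 to 963 scaled reads, and their part in the Fth1 result was not tested.

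In liver only 1 Fth1 difference was called among the 6 pairs, -1.51 for naked mole-rat minus guinea pig (SE 0.23, limma adjusted p = 1.97e-05). Naked mole-rat livers had 9150, 10149, 5309 and 7185 scaled reads and guinea pig livers 25833, 17059 and 24429. The Damaraland livers had 12785, 12533, 12688, 11036 and 8584, which overlapped the naked mole-rat range, and the mouse livers had 14636 and 15456. In order of mean, guinea pig, mouse, Damaraland mole-rat and naked mole-rat, no pair of neighbours was called.

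The ferritin light chain, Ftl1 (ENSMUSG00000050708), which helps nucleate the iron core, was lower in the naked than in the Damaraland mole-rat in both tissues. Heart levels were 1218, 1329 and 2178 scaled reads in the naked mole-rat and 6481, 6214, 6523, 3459 and 5131 in the Damaraland mole-rat, a difference of -1.78 (SE 0.24, limma adjusted p = 6.56e-06). Guinea pig hearts had 3955, 3189 and 2229 and mouse hearts 3832, 3773 and 3559. The naked mole-rat hearts lay below all other hearts, although the guinea pig library at 2229 was close to the highest of them. Naked mole-rat minus mouse was -1.24 (SE 0.26, limma adjusted p = 0.000587), and naked mole-rat minus guinea pig was -0.96, under the size threshold.

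Liver Ftl1 was 21858, 25512, 14460 and 25307 scaled reads in the naked mole-rat and 44842, 63010, 49891, 59571 and 46123 in the Damaraland mole-rat. Guinea pig livers had 30631, 22042 and 21385 and mouse livers 36716 and 36511. The Damaraland livers lay above all others. Damaraland exceeded guinea pig by 1.10 (SE 0.22, limma adjusted p = 0.000355), and naked minus Damaraland was -1.29 (SE 0.21, limma adjusted p = 2.8e-05). The Damaraland minus mouse difference was 0.51 and was not called. Fth1 and Ftl1 have processed pseudogenes in mammals, and how the authors' quantification shared reads among near-identical copies is not given in the sources used here, so their levels carry that uncertainty.

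The balance of the chains was also read within each library, where the size factor cancels. The ratio of Fth1 to Ftl1 reads carries the lengths of both genes, so it is set between tissues of 1 species only. In the naked mole-rat it was 2.02 ± 0.36 in heart (SD, n = 3) and 0.367 ± 0.059 in liver (SD, n = 4). In the Damaraland mole-rat it was 1.70 ± 0.24 in heart and 0.222 ± 0.045 in liver (SD, n = 5 each). In the guinea pig it was 5.58 ± 0.60 and 0.92 ± 0.196 (SD, n = 3 each), and in the mouse 4.32 ± 0.36 (n = 3) and 0.411 ± 0.017 (n = 2). Heart and liver ratios did not overlap in any of the 4 species, with the lowest heart library above the highest liver library each time. No test was made of this ratio.

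Bmp6 (ENSMUSG00000039004), the ligand that drives hepcidin transcription, had few reads in both tissues and its highest mean in the mouse. Heart levels were 32.1, 42.8 and 14.8 scaled reads in the naked mole-rat, 67.2, 59.2, 31.6, 72.2 and 82.7 in the Damaraland mole-rat, 167, 177 and 134 in the guinea pig, and 300, 232 and 321 in the mouse. Both mole-rats lay below both outgroups in every library, and the mole-rat ranges overlapped. The naked mole-rat differed by -1.34 from the guinea pig (SE 0.20, limma adjusted p = 1.84e-05) and by -1.96 from the mouse (SE 0.20, limma adjusted p = 2.02e-07). The Damaraland mole-rat differed by -1.47 from the mouse (SE 0.17, limma adjusted p = 1.47e-06) and by -0.84 from the guinea pig (SE 0.17, limma adjusted p = 0.000508), the last under the size threshold. On recovered reads with voom these 4 differences were -2.24, -3.07, -2.32 and -1.49, and all were called, so that Bmp6 was shifted in both mole-rats under that setting, as were 8.37% of all heart genes. Bone morphogenetic protein 6 is known from endothelial cells, and all 10 endothelial markers listed had a row. Their heart sums were 7852 to 11779 scaled reads for the naked mole-rat, 9459 to 12330 for the Damaraland mole-rat, 15215 to 18688 for the guinea pig and 12783 to 15927 for the mouse. No endothelial marker was at 0 in all libraries of a species. The part of endothelial RNA in the Bmp6 result was not tested.

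In liver, Bmp6 stood apart in the mouse, with 92.0 and 68.1 scaled reads. The naked mole-rat had 14.9, 16.6, 12.7 and 7.998, the Damaraland mole-rat 21.2, 28.5, 27.9, 7.37 and 17.0, and the guinea pig 20.3, 9.91 and 12.2. These 3 species overlapped. Relative to the mouse, the difference was -1.42 for the naked mole-rat (SE 0.23, limma adjusted p = 3.88e-05), -1.18 for the Damaraland mole-rat (SE 0.22, limma adjusted p = 0.000186) and -1.38 for the guinea pig (SE 0.24, limma adjusted p = 0.000111). Voom on the recovered reads gave -2.62, -1.99 and -2.47. Higher in mouse liver than in each other species was true of 6.33% of all genes. Summed endothelial markers were lowest in mouse liver, at 6270 to 7295 scaled reads, against 9467 to 20257 over the livers of the other species.

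Tmprss6 (ENSMUSG00000016942), the hepatocyte protease that holds hepcidin down, was higher in mouse liver than in Damaraland and guinea pig liver. Mouse livers had 9849 and 8814 scaled reads, naked mole-rat livers 4263, 5295, 4945 and 5517, Damaraland livers 4305, 4200, 4418, 5508 and 4225, and guinea pig livers 3742, 3901 and 5795. Every mouse liver lay above every other liver. Damaraland minus mouse was -1.04 (SE 0.19, limma adjusted p = 0.000171), guinea pig minus mouse was -1.08 (SE 0.21, limma adjusted p = 0.000329) and naked mole-rat minus mouse was -0.90 (SE 0.20, limma adjusted p = 0.000878), the last under the size threshold. The sizes were close to the threshold, and both calls were lost without mouse liver replicate 1, at -0.962 and -0.999. The guinea pig call was also lost without guinea pig replicate 1 or 2, at -0.965 and -0.994, and with array weights, at -0.87.

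In heart, Tmprss6 lay under the filter on low values and was not tested in the main analysis. It had 101, 48.0 and 74.1 scaled reads in the naked mole-rat hearts, 5.24 to 21.2 in the Damaraland hearts, 2.37 to 15.3 in the guinea pig hearts and 1.99 to 10.9 in the mouse hearts. The naked mole-rat hearts were above all others, as they were for 6 of the 8 hepatocyte markers. With the filter removed, the naked mole-rat was higher by 1.13, 1.27 and 1.28 than the Damaraland mole-rat, guinea pig and mouse (limma adjusted p = 3.01e-05, 2.91e-05 and 2.26e-05). The part of hepatocyte RNA in these values was not tested.

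**Figure D4:**
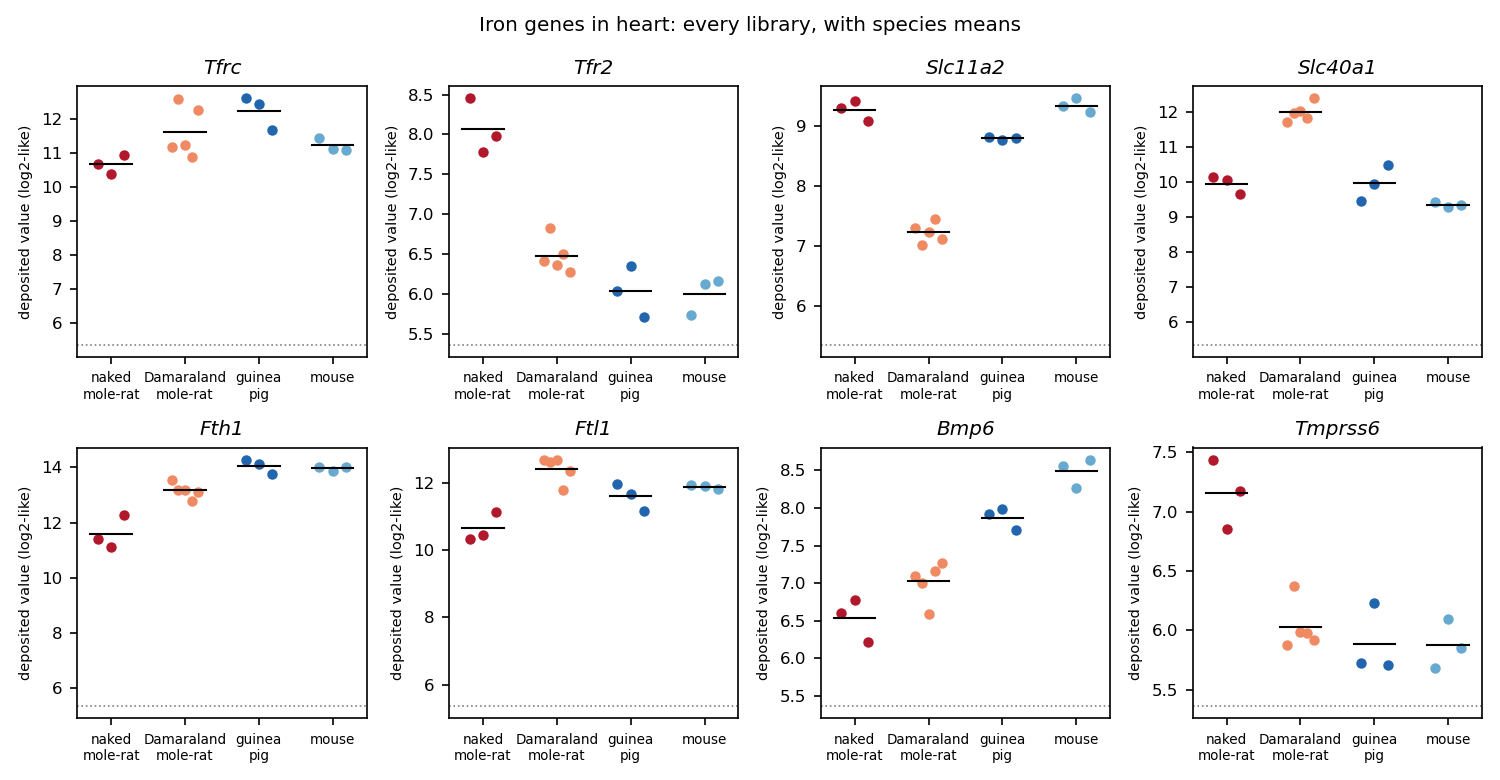
Deposited log2-like values of the 8 members in the 14 heart libraries; points are animals, bars are species means, and the dotted line is the value of 0 reads. Bmp6 is below both outgroups in every mole-rat library, and Fth1 is lowest in the naked mole-rat, at 11.12 to 12.29.

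**Figure D5:**
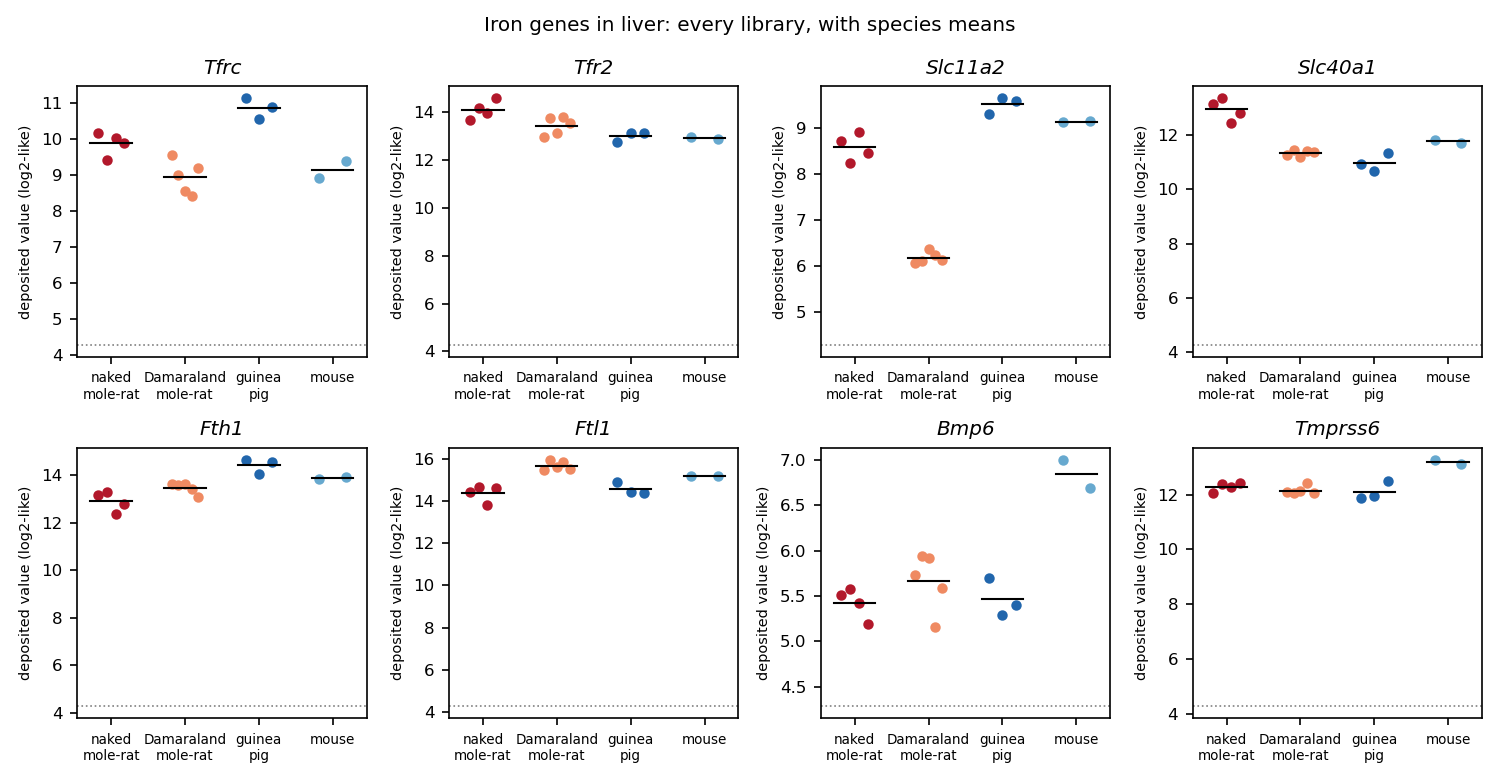
Deposited log2-like values of the 8 members in the 14 liver libraries, drawn as in the heart plot. Slc40a1 is highest in the naked mole-rat (12.45 to 13.35), Slc11a2 lowest in the Damaraland mole-rat (6.06 to 6.38), and Bmp6 and Tmprss6 highest in the mouse.

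With no minimum size, 2 of the 7 members in heart and 1 of the 8 in liver had adjusted p under 0.05 and 1 sign in each of the 4 pairs of a mole-rat and an outgroup, beside 14.8% and 15.9% of all genes. In heart these were Fth1 and Bmp6, both lower in the mole-rats. At an unadjusted p under 0.05 heart had 3, with Tfr2 as the third and higher in the mole-rats, and liver had 1, beside 16.5% and 17.3% of all genes. In liver it was Slc11a2, which differed by -0.93 and -0.56 in the naked mole-rat (limma adjusted p = 0.000118 and 0.0173 against guinea pig and mouse) beside the larger Damaraland gaps.

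Other genes of iron handling numbered 82 in 7 lists, and 72 had a row, of which 70 were tested in heart and 71 in liver. Between the mole-rats 25 of 70 were called in heart, 13 higher and 12 lower in the naked mole-rat, beside 29.4% of all genes, with a median difference of -0.037 beside -0.0018 over all genes. In liver 19 of 71 were called between the mole-rats, 11 higher and 8 lower, beside 34.2% of all genes, with a median of 0.11 beside -0.03. The median of the naked mole-rat minus mouse differences was -0.35 in heart beside -0.0024 over all genes, and -0.11 in liver beside 0.05. These values describe the lists and were not set against other lists.

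In heart, 3 of the 70 genes were higher and 2 lower in both mole-rats, beside 2.06% and 2.62% of all genes. Higher and lower in the naked mole-rat than in each other species were 5 and 6 of them (background 4.87% and 4.14%), and in the Damaraland mole-rat 2 and 3 (3.86% and 2.9%). In the guinea pig heart the counts were 2 higher and 2 lower (background 3.99% and 2.62%), and in the mouse heart 7 and 4 (background 6.6% and 3.8%). In liver, 4 of 71 were higher and 2 lower in both mole-rats, beside 3.42% and 2.87%. The naked mole-rat liver had 1 higher and 2 lower (background 5.83% and 4.45%), the Damaraland liver 0 and 2 (5.51% and 3.3%), the guinea pig liver 1 and 4 (5.1% and 4.28%) and the mouse liver 6 and 4 (6.33% and 5.83%). The genes named next come from those of these sets with the largest mean difference.

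Among the uptake and reduction genes, Cybrd1, a ferric reductase of the plasma membrane, was higher in both mole-rats in both tissues. Its mean was 1327 scaled reads in naked mole-rat heart and 930 in Damaraland heart, against 176 in guinea pig and 27.6 in mouse heart. In liver the means were 724, 764, 44.6 and 23.6 in the same order. The smallest of the 4 mole-rat against outgroup differences was 2.04 in heart and 3.23 in liver, with limma adjusted p of at most 2.21e-07 and 9.01e-08. Steap1, which belongs to the STEAP metalloreductase family, was higher in both mole-rats in liver, with means of 422 and 62.8 scaled reads in the naked and Damaraland mole-rats against 2.98 and 6.80 in guinea pig and mouse. Steap2, of the same family, was higher in Damaraland heart than in each other species, at 566 scaled reads against 17.4 to 116.

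The heme scavenger hemopexin (Hpx) was higher in both mole-rats in heart, with means of 1169 and 181 scaled reads in the naked and Damaraland mole-rats against 54.6 and 36.5 in guinea pig and mouse. The smallest of the 4 mole-rat against outgroup differences was 1.01, close to the size threshold, with limma adjusted p of at most 0.00559. Damaraland heart replicate 2 had 352 scaled reads of Hpx, and the other Damaraland hearts had 118 to 186. Haptoglobin (Hp), which binds free hemoglobin, was higher in naked mole-rat heart than in each other species, at 941 against 22.3 to 181 scaled reads. Both are secreted mainly by hepatocytes, and in naked mole-rat their heart medians stood at 1.38% and 1.83% of the liver medians, beside 1.36% for the hepatocyte markers. In the Damaraland mole-rat these shares were 0.152% and 0.101%, beside 0.254%. They were 0.114% and 0.259% beside 0.253% in the guinea pig, and 0.0516% and 0.0717% beside 0.0326% in the mouse. The part of hepatocyte RNA in the Hpx and Hp results was not tested.

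Ncoa4, the receptor that delivers ferritin to the lysosome, was lower in naked mole-rat heart than in each other species, as Fth1 was. Its means were 403 scaled reads in the naked mole-rat, 1839 in the Damaraland mole-rat, 3003 in the guinea pig and 1939 in the mouse, with differences of 2.03 to 2.71 in size and limma adjusted p of at most 4.24e-07. Of 13 genes of mitochondrial iron and iron-sulfur cluster assembly, 4 were lower in naked mole-rat heart than in each other species (4.14% of all genes). Isca1, an iron-sulfur assembly factor, was not 1 of these 4. It was lower in both mole-rats in heart, at 1143 and 654 against 2920 and 4501 scaled reads in guinea pig and mouse. In liver Isca1 was lower in the Damaraland mole-rat than in each other species, as was the mitochondrial iron importer mitoferrin-1 (Slc25a37), at 106 scaled reads against 540 to 915.

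Among the heme genes, Alad, the second enzyme of heme synthesis, was higher in both mole-rats in both tissues. Its means were 5024 and 2015 scaled reads in naked and Damaraland heart against 557 and 640 in guinea pig and mouse heart, and 5515 and 6520 against 1746 and 2167 in liver. The heme and urate exporter Abcg2 was lower in both mole-rats in liver, with 42.9 and 236 scaled reads against 1149 and 1938, and in heart it was lower in the Damaraland mole-rat than in each other species. Blvra, which turns biliverdin into bilirubin, was higher in Damaraland heart than in each other species, at 1504 against 83.2 to 238. Alas2, the erythroid first enzyme of heme synthesis, was higher in mouse than in each other species in both tissues, with a mean of 1753 scaled reads in mouse liver against 59.5 to 143. In heart the mouse range of 298 to 1342 overlapped that of the guinea pig, 46.0 to 1035, and the highest of the 3 limma adjusted p was 0.0403. Of 14 erythroid markers 6 had a row, and Alas2 itself made up most of their sum in mouse liver, at 1556 to 1949 of 1693 to 2082 scaled reads. Sptb, the largest other one, was lowest there, at 74.3 to 78.3 against 81.5 to 926 in the other livers. The heme exporter Flvcr1 was higher in guinea pig liver than in each other species, at 982 against 55.4 to 104, while Hmox2, Slc48a1 and Hpx were lower there.

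Of 17 tested genes of the pathway upstream of hepcidin, 2 were lower in Damaraland heart (2.9% of all genes), 1 was higher in guinea pig heart (3.99%) and 1 higher in mouse heart (6.6%) than in each other species, and in liver 1 was lower in the guinea pig (4.28%). A single gene of 17 is near these shares. Hfe, which joins the transferrin receptors in sensing iron, was lower in Damaraland heart than in each other species, at 76.8 scaled reads against 284 to 926. Hemojuvelin (Hjv), the substrate of Tmprss6, was higher in mouse heart than in each other species, at 4902 scaled reads against 324 to 1496, and in liver its means of 679 to 976 gave no call in any pair. Smad1, a BMP signal transducer, was higher in guinea pig heart than in each other species, by at least 1.05. Iron regulatory protein 1 (Aco1) was higher in guinea pig heart by at least 1.17, and the ferroxidase ceruloplasmin (Cp) was lowest there and highest in mouse heart, at 58.2 and 1023 scaled reads. The endosomal ferric reductase Steap3 was lower in guinea pig heart and in mouse liver than in the same tissue of each other species. In liver, mouse was higher than each other species for Steap4 and for the haptoglobin-hemoglobin receptor Cd163, the latter at 354 scaled reads against 0 to 5.72.

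The genes whose values ran closest to 3 of the members over the 14 libraries of a tissue were found by Pearson correlation. In heart these were Aacs (r = 0.989), Supt5 (0.987) and Btrc (0.981) for Slc40a1, Rac1 (0.984), Tiprl (0.976) and Tmsb4x (0.975) for Fth1, and Serpine2 (0.893), Plxnc1 (0.856) and Mest (0.849) for Tfrc. In liver they were Rpl36a (0.977), Lpcat2 (0.975) and Zdhhc3 (0.973) for Slc40a1, Yipf5 (0.961), Vma21 (0.957) and Tcp1 (0.949) for Fth1, and Aif1 (0.93), Fgf12 (0.929) and Mettl16 (0.927) for Tfrc. No gene was named for both tissues. The libraries fall into 4 species, so these correlations describe likeness of the species pattern.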

How the data were processed

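Heart and liver RNA was sequenced in 28 libraries. The submitters' processing notes name cutadapt, Salmon 013.1, DESeq2 and GRCm38, with no role stated. The authors deposited 1 table per tissue of variance-stabilised log2-like values, and 26 columns of other series were not used. How genes were matched across species, and any correction for length, is not given in the sources used here. The transform was inverted and gave whole reads for 100% of values (tolerance 0.01). Symbols were matched for 13921 of 13928 rows.

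limma 3.58.1 in R 4.3.3 was fitted to the deposited values with a coefficient per species and a variance trend, on 10667 genes in heart and 10887 in liver whose mean was at least 1 above the value of 0 reads. Tests were two-sided, and calling was tested on simulated data. Members were all named. Other iron genes were named where called in all 4 mole-rat against outgroup contrasts or against all 3 other species, at most 4 per pattern by mean size of difference. 1 gene that this rule names is not reported here. Members and lists were chosen with earlier results of these data known. Alternatives covered the size threshold, the filter, centring, quantile normalisation, the variance trend, array weights, a replicate block, voom on recovered reads and each library left out.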

Additional observations from a re-analysis of the deposited data

Results flagged for a closer look

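In 24 sets of 4 or 5 libraries checked (8 members in naked mole-rat liver and in both Damaraland tissues), 2 values stood far from the rest of their group, and chance alone gives about 1 in 20. Tmprss6 in Damaraland mole-rat heart replicate 2 was 6.38 on the log2-like scale, against 5.88 to 5.98 in the other Damaraland hearts. The same library had 45.9 scaled reads of Tfr2 and 4120 of Alb. Damaraland heart replicate 5 had more Alb, at 4583 scaled reads, with 17.2 of Tfr2 and 6.24 of Tmprss6. Tmprss6 in Damaraland mole-rat liver replicate 4, the only female, was 12.44, against 12.05 to 12.12 in the other Damaraland livers.

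For several members the species difference had opposite signs in heart and liver, with groups that did not overlap in either tissue. The share of all genes with this pattern was not counted. The difference between the tissues was not tested, since the tables were normalised separately and animals are partly shared. For Slc40a1, naked minus Damaraland mole-rat was -2.03 in heart and 1.60 in liver, both called. For the same gene Damaraland minus mouse was 2.64 in heart and -0.43 in liver, and guinea pig minus mouse was 0.61 and -0.79. For Slc11a2, naked mole-rat minus guinea pig was 0.47 in heart and -0.93 in liver, and guinea pig minus mouse was -0.54 and 0.37. Tfrc gave -0.55 in heart and 0.73 in liver for naked mole-rat minus mouse, and Tmprss6 gave 1.28 and -0.90 for the same pair, with heart Tmprss6 near its detection limit. Only the Slc40a1 pair between the mole-rats was called in both tissues. Limma adjusted p was 0.203 for Tfrc in heart (naked mole-rat minus mouse). In liver it was 0.102 for Slc40a1 (Damaraland minus mouse) and 0.121 for Slc11a2 (guinea pig minus mouse).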

How the results depend on the processing

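Of the 37 member differences called by limma, 32 were called with the same sign in every setting and with each library left out. The exceptions were Tfr2 in liver against both outgroups, Tfrc in heart between guinea pig and mouse, and Tmprss6 in liver between the mouse and both the Damaraland mole-rat and the guinea pig. Without the size threshold, genes called in heart numbered 6661 between the mole-rats, 6487 and 6950 for the naked mole-rat against guinea pig and mouse, 6600 and 7100 for the Damaraland mole-rat, and 6357 between the outgroups. In liver they numbered 7367, 7133, 6988, 7137, 6919 and 6406 in the same order. Member calls then rose to 32 in heart and 30 in liver, members shifted in both mole-rats to 2 and 1, and other iron genes shifted in both to 9 and 14. Voom on recovered reads gave 2 members shifted in both mole-rats in heart, Tfr2 and Bmp6, beside 8.37% of all genes. With a library left out, other iron genes shifted in both mole-rats in heart ran from 3 to 6, with 3 reached without Damaraland heart replicate 2.

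Differences near 0, none of them called, turned sign. Slc40a1 in heart between naked mole-rat and guinea pig was 0.021 with centring, 0.045 with quantile normalisation, 0.13 with array weights and 0.043 with voom, and ran from -0.25 to 0.25 with a library left out. Slc11a2 in heart between naked mole-rat and mouse was 0.0071 with quantile normalisation and ran from -0.15 to 0.021. Tmprss6 in liver with quantile normalisation was -0.012, -0.058 and -0.046 for naked minus Damaraland, naked minus guinea pig and Damaraland minus guinea pig, and with array weights the last 2 were -0.065 and -0.16. Bmp6 in liver between naked mole-rat and guinea pig was 0.032 with array weights and ran from -0.12 to 0.078. Leaving out a library, guinea pig minus mouse in heart ran from -0.038 to 0.22 for Fth1 and from -0.13 to 0.19 for Tfr2, and in liver Tmprss6 ran from -0.077 to 0.24 (Damaraland minus guinea pig) and Tfrc from -0.43 to 0.026 (Damaraland minus mouse). The cause was not tested.

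Replicate numbers name different animals of different species, and same-numbered libraries did not deviate together (mean correlation -0.00017 in heart and 0.000778 in liver). A fit with the replicate block gave 0.087 for Bmp6 (naked minus guinea pig) and -0.0078 for Tmprss6 (Damaraland minus guinea pig) in liver, lost the Tfr2 call in liver against the guinea pig at 0.93, and gained Ftl1 in heart (Damaraland minus guinea pig, 1.05) and Tmprss6 in liver (naked minus mouse, -1.05). Leaving out a mouse liver leaves 1, which is assumed to vary like the other groups. Depth limits Bmp6 and heart Tfr2 and Tmprss6, which had few reads.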
